A study of Mus musculus with 4 samples.

Results

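The nuclear genes of oxidative phosphorylation were examined in IMS/N cells, a line of mouse hepatic stellate cells taken from the liver of normal 129/Sv mice and immortalized with SV40. Members were chosen by gene name alone, as every array probe whose name begins with the symbol of a subunit family of complexes I to V. This gave 92 genes read by 136 probes, of 26715 genes and 41174 probes on the array. Of the 92 genes, 36 belong to complex I, 4 to complex II, 8 to complex III, 19 to complex IV (with Ndufa4, now counted there) and 15 to complex V. The remaining 10 share a prefix but are assembly factors (Ndufaf1 to Ndufaf7), relatives named after ATP synthase (Atp5s, Atp5sl) or a pseudogene (Atp5c1-ps). Cells were treated with recombinant murine IL17A plus ADSC medium, with IL17A, with ADSC medium, or left untreated, and total RNA of each was read on 1 array. ADSC medium came from cultured adipose tissue-derived stem cells of the inguinal subcutaneous fat of male C57BL/6J mice aged 8 to 10 weeks. Doses and times are not given in the sources used here.

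Oxidative phosphorylation is the last step of respiration, in the inner mitochondrial membrane. Complexes I and II pass electrons from NADH and succinate to ubiquinone, complex III passes them on to cytochrome c, complex IV reduces oxygen, and complex V makes ATP from the proton gradient that the others build. Most subunits are encoded in the nucleus, a few in mitochondrial DNA, and complex IV in particular has subunits with alternative forms for muscle, testis or other tissues.

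With 1 array a group, differences between groups are unreplicated, and "higher" or "lower" says only how 2 arrays stood to each other. Between 58.1% and 60.5% of non-control spots were well above background on each array. The IL17A and untreated arrays lay on slide 1 and both arrays with ADSC medium on slide 2. IL17A was therefore compared within a slide, whereas ADSC medium and slide cannot be told apart. Probes spotted several times gave a technical SD, the scatter between spots of a probe in its log2 difference between 2 arrays. It was 0.062 log2 at mean levels of 10 or more, 0.070 from 7 to 10, 0.12 from 5 to 7 and 0.19 below 5. A shift shared by all spots of a probe, as from RNA or labelling, is not in it, so the error between arrays was not measured. Levels below are log2 of the processed signal after quantile normalization, each from 1 probe and comparable only with itself on the other arrays. Of 11 stellate and myofibroblast markers, 7 were well above background on all 4 arrays, among them Acta2, Col1a1 and Pdgfrb, while Reln and Hand2 were on none and Lrat and Hgf on 1. None of 5 hepatocyte markers was well above background. Of 4 cholangiocyte or mesothelial markers 3 were on all arrays and Upk3b on none, and log2 of their summed level, mostly Msln, was 12.88 with both agents, 13.35 with IL17A, 13.49 with ADSC medium and 14.09 untreated. The stellate and myofibroblast sum, mostly Vim, Col1a1 and Col1a2, was 16.14, 16.28, 16.61 and 16.95 in the same order of arrays. Of the 7 such markers on all arrays, 5 were lower and 2, Des and Lhx2, higher with both agents than untreated. Dimmer sums were those of 5 macrophage markers, 6.92, 6.45, 6.67 and 6.11, with Adgre1 and Clec4f not well above background, and of 3 adipocyte markers, 7.42, 8.39, 6.94 and 7.09, nearly all Fabp4, with Adipoq and Plin1 not well above background. Those of 4 endothelial markers were 4.64, 4.82, 5.03 and 5.02, with Pecam1 and Cdh5 not well above background. The part of such differences between the cultures in the results below was not tested.

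The respiratory chain genes were read on every array and differed little between them. Of the 92 genes, 88 were well above background on all 4 arrays, Cox7b2 on 1 array, and Cox4i2, Cox8b and Cox8c on none. These last 3 are complex IV isoforms of lung, of muscle and of testis. Mean log2 levels of the 88 genes ran between 5.06 and 16.90 with a median of 13.75, and 80 of them reached 10 or more. The highest minus the lowest level over the 4 arrays had a median of 0.18 log2 for the 88 genes, against 0.39 over all 14485 genes measured on every array. It was under 0.25 in 69 members, from 0.25 to 0.5 in 15 and at least 0.5 in Cox6a2, Atp5g2, Ndufv3 and Atp5sl.

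The small spread went partly with high levels. Between mean log2 levels of 10 and 12 the median spread was 0.16 in 16 members and 0.30 in all genes, and between 12 and 14 it was 0.14 in 26 members and 0.24 in all genes. At 14 and above it was 0.21 in 38 members and 0.20 in all genes. Between 7 and 10 it was 0.35 in 6 members and 0.36 in all genes, and below 7 it was 1.13 in 2 members and 0.66 in all genes. Ndufa2, an accessory subunit of complex I, varied least, with a spread of 0.02. Its levels were 15.27 with IL17A plus ADSC medium, 15.28 with IL17A, 15.27 with ADSC medium and 15.29 untreated. Uqcrh, the hinge protein of complex III, came next with 0.04 on its brighter probe. By complex, the median spread was 0.18 in complex I, 0.10 in complex II, 0.18 in complex III, 0.21 in complex IV and 0.16 in complex V.

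**Figure D1:**
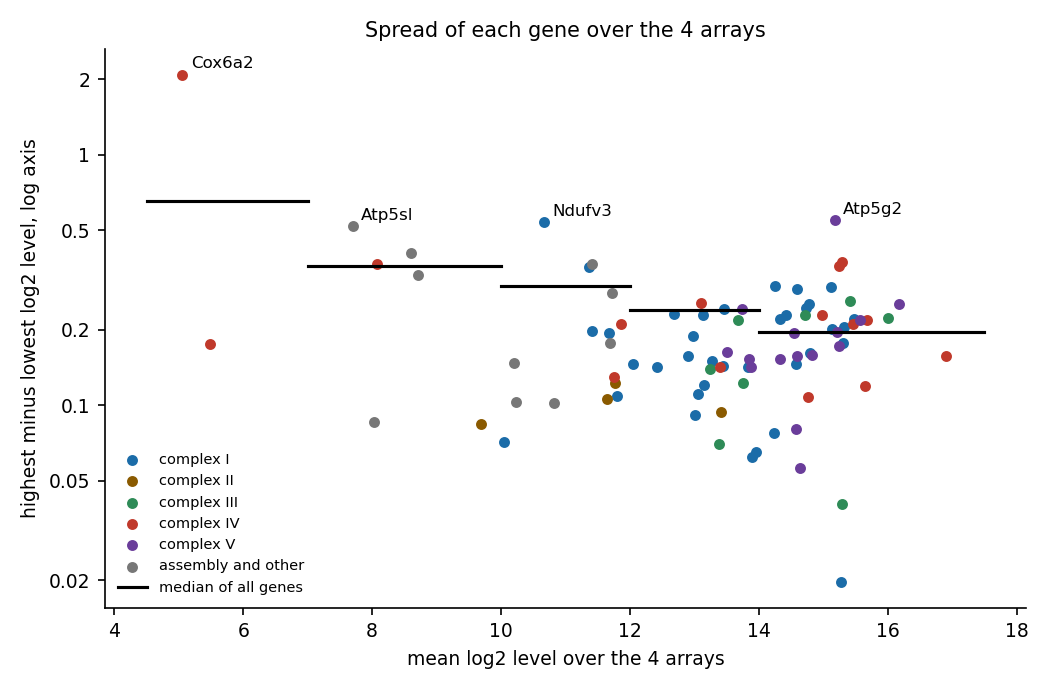
Each point is 1 of the 88 genes measured on all 4 arrays, placed by its mean log2 level (x axis) and by its highest minus lowest log2 level over the arrays (y axis, log axis), and coloured by complex. Black bars give the median of all genes in 5 level classes, 0.66, 0.36, 0.30, 0.24 and 0.20. Points between 10 and 14 lie mostly under the bars, those at 14 and above on both sides of them, and Cox6a2, Atp5g2, Ndufv3 and Atp5sl stand highest.

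With IL17A alone the set as a whole stood close to untreated cells. The median log2 difference, IL17A minus untreated, was -0.01 over 88 members and 0.00 over all genes, and 39 members lay above 0 and 49 below. Of all genes, 7475 lay above 0 and 7237 below. With 75th percentile scaling in place of quantile normalization 60 members lay above and 28 below, so the split of the members has no settled direction. At 1.5-fold or more, 1 of 89 members tested differed, the dim isoform gene Cox7b2, against 13.4% of all genes. At 1.2-fold or more, Atp5sl was added, giving 2 of 89 members against 34.7% of all genes. Among genes with a mean log2 level of at least 10, 0 of 80 members passed 1.2-fold against 17.2% of all genes. In total RNA of a culture, fewer cells of a type and less RNA per cell cannot be told apart.

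The lowest differences with IL17A were those of Cox5b, the zinc-binding subunit of complex IV, at -0.24, Uqcr10 of complex III at -0.23, Ndufb9 of complex I at -0.22, the ATP synthase c subunit gene Atp5g3 at -0.22 and Ndufb8 at -0.20. All 5 were bright, and under 75th percentile scaling their differences lay closer to 0, between -0.09 and -0.02. Ndufb8 has a second RefSeq-matched probe, which is dimmer and gave 0.13, and the mean of its probes was -0.04. Cox5b had processed signals of 41838 with IL17A plus ADSC medium, 33833 with IL17A, 43206 with ADSC medium and 38534 untreated. The array with IL17A alone was thus the lowest of the 4 for Cox5b, and the array with both agents stood above untreated. The highest differences were those of Atp5sl at 0.34, the complex I assembly factor Ndufaf5 at 0.24, the testis isoform gene Cox6b2 at 0.17, Ndufaf1 at 0.15 and the acyl carrier protein gene Ndufab1 at 0.13. All but Ndufab1 among these had mean log2 levels under 11. Atp5sl has a second, dimmer probe, which gave -0.12 for IL17A minus untreated and -0.67 for ADSC medium minus untreated, where the first gave 0.46.

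Addition of IL17A to ADSC medium, a comparison that shares no array with the first, gave small differences mostly below 0. The median, IL17A plus ADSC medium minus ADSC medium, was -0.06 over 88 members and -0.03 over all genes, with 17 members above 0 and 71 below. Among the 27 other, dimmer RefSeq-matched probes of members well above background on all arrays, 11 lay above 0 and 16 below. Of all genes, 6411 lay above 0 and 8522 below, and of those with a mean log2 level of 10 or more, 2462 and 2719. None of 88 members passed 1.5-fold, against 15.6% of all genes. At 1.2-fold, 1 of 88 did, against 34.2% of all genes, and at mean log2 levels of 10 or more 0 of 80 against 10.6%. That member was Cox7a1, the heart and muscle isoform of subunit VIIa of complex IV, at -0.31. Its signals were 231 with both, 257 with IL17A, 279 with ADSC medium and 316 untreated, so that each array with IL17A was below its partner without it. After Cox7a1 came Ndufv3 at -0.25, Ndufaf3 at -0.22, Cox6c at -0.20 and the iron-sulfur subunit Ndufs8 at -0.19. On the high side stood Ndufaf4 at 0.12, Cox6b2 at 0.10 and Ndufab1 at 0.07.

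By complex, the medians of the IL17A difference without and with ADSC medium lay between -0.07 and 0.05. Complex I had -0.01 without and -0.07 with the medium, with 21 and 31 of 36 genes below 0. For the 4 genes of complex II, Sdha to Sdhd, the difference was above 0 without the medium, at 0.01 to 0.12, and below 0 with it, at -0.05 to 0.00. All of these but Sdhb without the medium, at 0.12, were smaller than the technical SD at their level. The second RefSeq-matched probe of Sdha gave 0.14 without and 0.02 with the medium. Complex III gave -0.03 and -0.05, with 7 and 8 of 8 genes below 0 on the probes used. Second RefSeq-matched probes gave 0.11 and 0.05 for Uqcrh, and 0.06 and -0.08 for Uqcrc1. Beside these counts, 7237 of 14713 genes measured were below 0 without the medium and 8522 of 14934 with it. In complex IV the medians were -0.07 and -0.04, and in complex V 0.00 and -0.06.

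**Figure D2:**
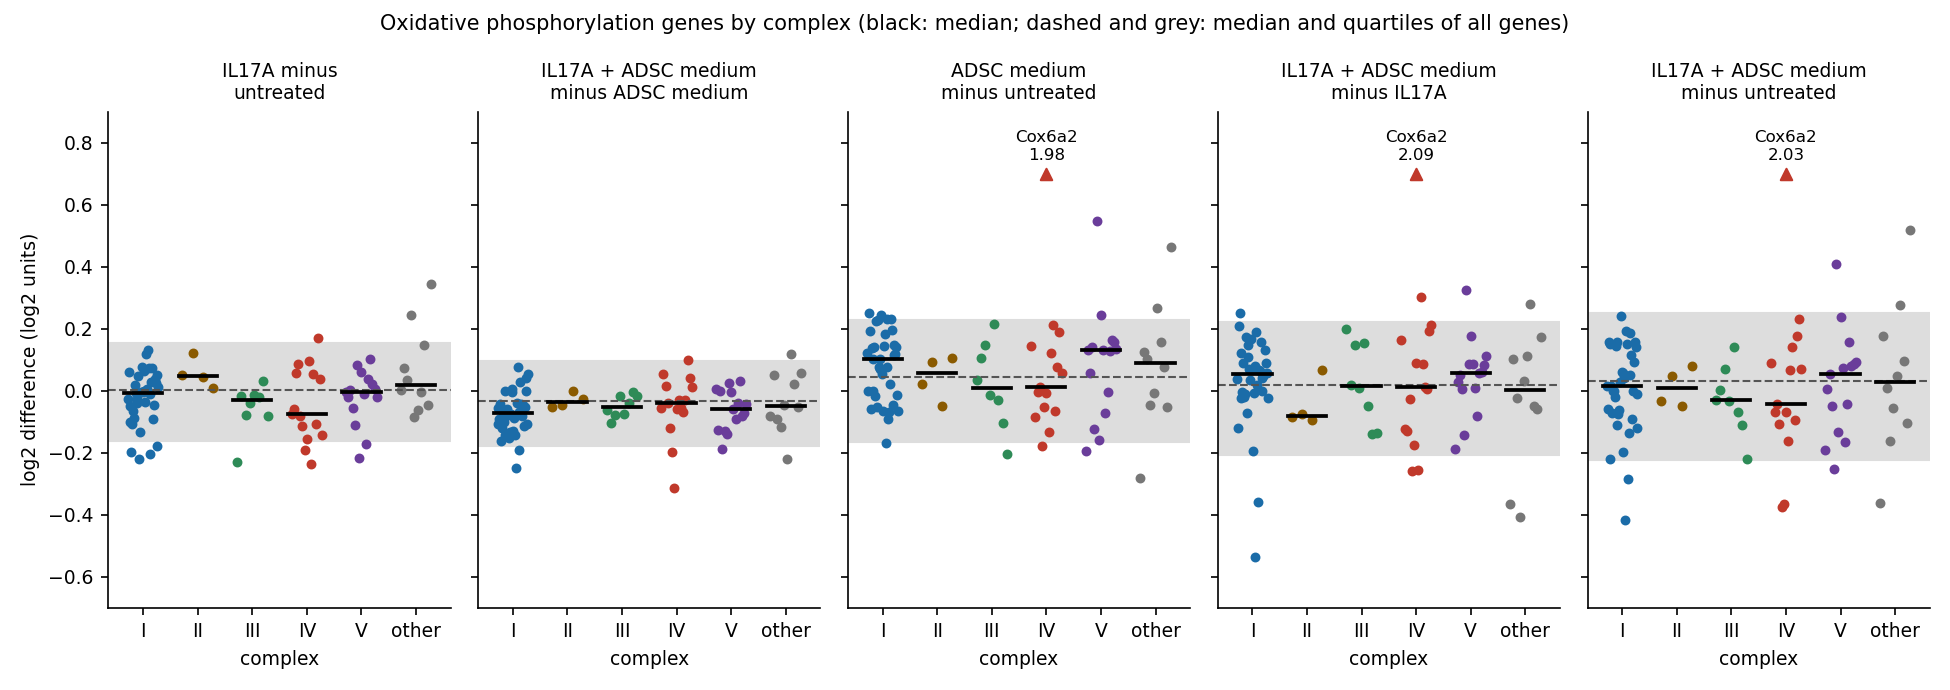
Log2 differences (y axis) of the 88 genes measured on all 4 arrays, grouped by complex (x axis, "other" for assembly factors and relatives), in the 5 comparisons named above the panels. Black bars are group medians, and the dashed line and grey band are the median and quartiles of all genes. Most points lie inside the grey band, and triangles mark Cox6a2, at 1.98, 2.09 and 2.03 beyond the axis in the comparisons with ADSC medium.

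ADSC medium went with slightly higher levels of many members. The median difference, ADSC medium minus untreated, was 0.08 over 88 members and 0.04 over all genes, with 55 members above 0 and 33 below. Of all genes, 8398 lay above 0 and 6499 below. Under 75th percentile scaling the median was 0.18 over members and 0.04 over all genes, with 73 members above 0 and 15 below. Passing 1.5-fold were 2 of 89 members, Cox6a2 above and Cox7b2 below, against 17.3% of all genes. At 1.2-fold 6 of 89 members passed, against 43.3% of all genes, with Atp5g2, Atp5sl and Ndufaf3 added on the high side and Atp5c1-ps on the low side. Of members with a mean log2 level of 10 or more, 2 of 80 passed 1.2-fold against 24.5% of all genes. Complex V had the highest median, 0.13, then complex I with 0.10, complex II with 0.06, and complexes III and IV with 0.01 each.

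In IL17A-treated cells, addition of ADSC medium gave a median difference, IL17A plus ADSC medium minus IL17A, of 0.04 over 88 members and 0.02 over all genes, with 56 members above 0 and 32 below. Of all genes, 7716 lay above 0 and 6991 below. Cox6a2 was the only member of 88 past 1.5-fold, against 19.3% of all genes. At 1.2-fold 8 of 88 passed against 45.7% of all genes. These were Cox6a2, Atp5g2, Cox5b and Ndufaf4 on the high side and Ndufv3, Ndufaf5, Atp5c1-ps and Ndufs8 on the low side. Restricted to a mean log2 level of 10 or more, 6 of 80 members passed against 26.2% of all genes. Complex II was the only complex with a median below 0 here, at -0.08 over 4 genes, with Sdhc alone above 0.

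Cells with both agents were set against untreated cells last, across the slides. Members had a median difference of 0.01 and all genes 0.03, with 47 members above 0 and 41 below, or 59 and 29 under 75th percentile scaling. Of all genes, 7966 lay above 0 and 6942 below after quantile normalization. Cox6a2 and Cox7b2 again were the 2 of 89 members past 1.5-fold, against 21.9% of all genes. At 1.2-fold 10 of 89 passed against 49.9% of all genes, and 6 of 80 against 32.7% at mean log2 levels of 10 or more. Higher by this rule were Cox6a2, Atp5sl, Atp5g2 and Ndufaf4, and lower were Ndufv3 at -0.42, Cox6c at -0.37, Cox7a1 at -0.37, Atp5c1-ps at -0.36, Ndufs8 at -0.28 and Cox7b2.

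Cox6a2, the heart and skeletal muscle isoform of subunit VIa of complex IV, differed most among the members measured on every array. Its processed signal was 70.1 with IL17A plus ADSC medium, 14.7 with IL17A, 61.4 with ADSC medium and 19.0 untreated. Both arrays with the medium were high and both arrays without it low. The share of all genes separated in this way was not counted, and 72.7% of them had the same sign in the 2 medium comparisons. The normalized level was 3.94-fold higher with ADSC medium than untreated (log2 1.98), 4.25-fold higher with both than with IL17A (2.09), and 4.08-fold higher with both than untreated (2.03). IL17A itself made little difference, at -0.06 without and 0.05 with the medium. After normexp background correction the 3 differences with the medium were 0.86, 0.82 and 0.91. Its 1 probe had a single spot on each array, and the 2 levels of the medium are also the 2 slides.

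The other form of the subunit, Cox6a1, which is the common one in liver and most tissues, had log2 levels of 16.89 with both, 16.80 with IL17A, 16.95 with ADSC medium and 16.96 untreated. Its differences with ADSC medium were -0.01 in untreated and 0.09 in IL17A-treated cells. The difference seen for Cox6a2 thus had no counterpart of its size in Cox6a1.

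Cox7b2, a testis isoform of subunit VIIb, was well above background in untreated cells only. Its signals were 1.25 with both, 1.46 with IL17A, 1.54 with ADSC medium and 59.6 untreated. Against untreated cells it was at least 11.5-fold lower with IL17A, at least 19.0-fold lower with ADSC medium and at least 27.3-fold lower with both. Such a bound sets the dim array to the lowest level well above background on it. After normexp correction the 3 differences were -0.97, -0.90 and -0.94 log2, and the reading rests on 1 spot of 1 array. The common form Cox7b had levels of 15.10 with both, 14.90 with IL17A, 15.06 with ADSC medium and 14.87 untreated.

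**Figure D3:**
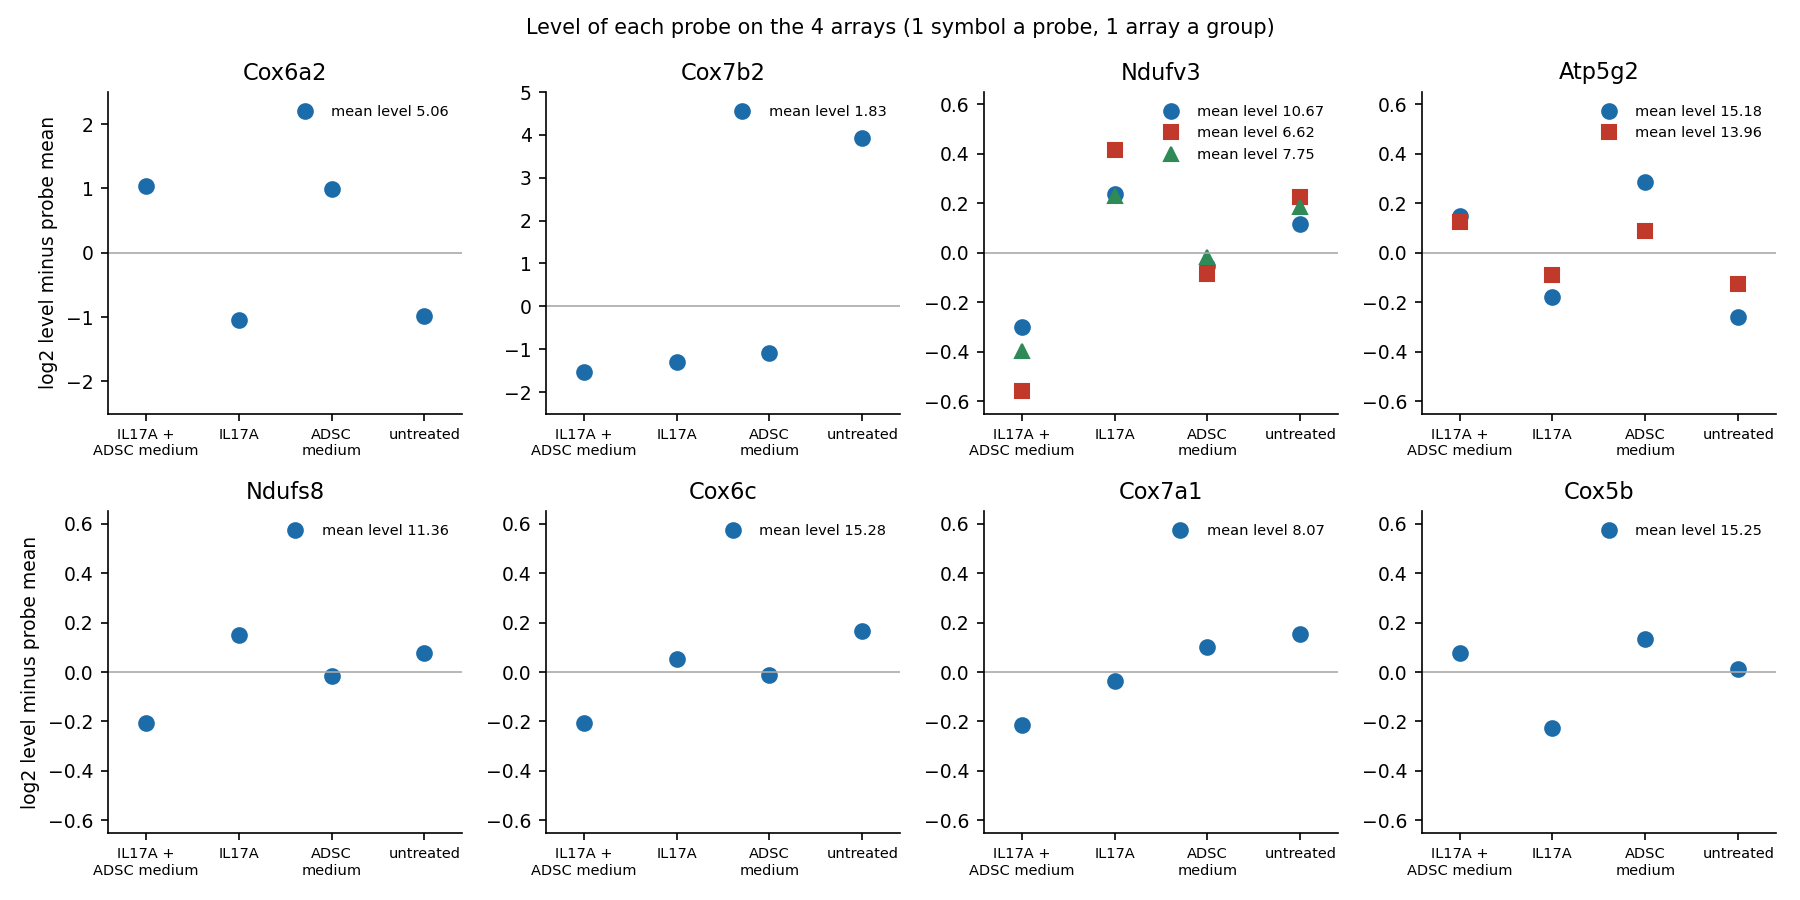
Log2 level of each RefSeq-matched probe minus its mean over the 4 arrays (y axis) on the arrays of IL17A plus ADSC medium, IL17A, ADSC medium and untreated cells (x axis), for 8 members, with 1 symbol for each probe and 1 array for each group. Cox6a2 is high on both medium arrays, Cox7b2 on the untreated array alone, and Ndufv3, Ndufs8, Cox6c and Cox7a1 are lowest with both agents. The y axes of Cox6a2 and Cox7b2 are wider than the others.

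Ndufv3, an accessory subunit of the NADH-oxidizing flavoprotein part of complex I, was the member with the lowest difference when ADSC medium was added to IL17A. It was read by 3 probes matched to RefSeq accessions, shown here because all 3 gave the same order of arrays in normalized levels. Their 60-base sequences, 5′ to 3′ on the plus strand of chromosome 17 in mm9, carry no marked part.
Ndufv3 probe 1, chr17:31658570-31658629: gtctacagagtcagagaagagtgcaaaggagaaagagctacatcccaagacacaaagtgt
Ndufv3 probe 2, chr17:31664691-31664750: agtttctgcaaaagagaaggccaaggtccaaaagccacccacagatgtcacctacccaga
Ndufv3 probe 3, chr17:31665148-31665207: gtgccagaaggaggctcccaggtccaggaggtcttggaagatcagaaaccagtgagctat

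Probe 1 of Ndufv3 had signals of 1310 with both, 1874 with IL17A, 1556 with ADSC medium and 1845 untreated. At the normalized level the array with both agents was the lowest for each of the 3 probes, and the IL17A array the highest. With both minus IL17A, the log2 difference was -0.54 for probe 1, -0.97 for probe 2 and -0.63 for probe 3. The IL17A difference was above 0 without ADSC medium, at 0.12, 0.19 and 0.05, and below 0 in its presence, at -0.25, -0.47 and -0.38. When the mean of the 3 probes is taken, Ndufv3 passes 1.5-fold, at -0.71 for both minus IL17A and -0.59 for both minus untreated. Which Ndufv3 transcripts each probe reads was not analysed here.

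Ndufs8, which carries iron-sulfur clusters near the ubiquinone site of complex I, and Ndufaf5, an assembly factor of the same complex, had the same order of normalized levels as Ndufv3, lowest with both and highest with IL17A. Ndufs8 had signals of 2231 with both, 2833 with IL17A, 2616 with ADSC medium and 2881 untreated, and its difference for both minus IL17A was -0.36, or -0.10 after normexp correction. After that correction Ndufs8 was highest with ADSC medium, at 0.13 against untreated, beside 0.07 for IL17A, so its order rests on the background handling. Ndufaf5 had 343 with both, 448 with IL17A, 364 with ADSC medium and 406 untreated, with a difference of -0.41 between both and IL17A. Cox6c, a small subunit of complex IV, was 34766 with both, 41045 with IL17A, 39733 with ADSC medium and 43170 untreated, again lowest with both. Its difference for both minus untreated, -0.37, was -0.23 under 75th percentile scaling. Each of these 3 genes was read by a single probe.

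The c subunit of the ATP synthase rotor is encoded by Atp5g1, Atp5g2 and Atp5g3, whose mature proteins are identical. Atp5g2 had signals of 41736 with both, 33275 with IL17A, 45956 with ADSC medium and 31888 untreated. Its medium differences were 0.55 in untreated and 0.33 in IL17A-treated cells on this probe, and 0.21 in each on its second probe. Both medium arrays were above both arrays without medium on either probe, a pattern that was not counted over all genes. After normexp correction the first probe gave 0.37 and 0.04. Atp5g1 differed by 0.16 and 0.06, and Atp5g3 by -0.16 and 0.09. Under 75th percentile scaling the first difference of Atp5g3 was 0.04, so its direction rests on the normalization.

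Among other subunits with alternative forms, Cox4i1 had levels of 15.72 with both, 15.56 with IL17A, 15.78 with ADSC medium and 15.64 untreated, whereas its partner Cox4i2 was not well above background on any array. Cox8a likewise stood at 15.54 with both, 15.33 with IL17A, 15.53 with ADSC medium and 15.47 untreated beside Cox8b and Cox8c, which were not well above background. Cox6b1 had 11.90, 11.81, 11.97 and 11.76 in the same order of arrays, and the testis form Cox6b2 5.56, 5.55, 5.46 and 5.38. The subunit VIIa genes Cox7a2 and Cox7a2l stayed within 0.11 and 0.13 log2 over the 4 arrays, against 0.37 for the muscle form Cox7a1. Of the tissue forms of complex IV, Cox6a2, Cox6b2 and Cox7a1 were thus measured on every array, beside all the common forms named here.

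The core of the complexes, mainly subunits that carry electrons or form ATP, was taken as 17 genes, from Ndufs1, Ndufv1 and Sdha to Uqcrfs1, Atp5a1 and Atp5b. None of the 17 passed 1.5-fold in any of the 5 comparisons. Few bright genes did so: of all genes with a mean log2 level of at least 10, 3.78% passed for IL17A minus untreated, 1.83% for both minus ADSC medium, 4.23% for ADSC medium minus untreated, 4.9% for both minus IL17A and 7.41% for both minus untreated. The median of the 17 core genes was 0.00 for IL17A minus untreated, -0.05 for both minus ADSC medium, -0.03 for ADSC medium minus untreated, -0.05 for both minus IL17A and -0.05 for both minus untreated. Ndufs7, an iron-sulfur subunit of complex I, was the highest of them in the 3 comparisons that add the medium, at 0.25 for ADSC medium minus untreated. Atp5a1, the alpha subunit of the ATP synthase head, was the lowest in that comparison on its brighter probe, at -0.20, or -0.05 under 75th percentile scaling. Its second RefSeq-matched probe gave 0.21, and the mean of its probes 0.01, so its direction rests on the probe. Levels on the brighter probe were 15.12 with both, 15.31 with IL17A, 15.12 with ADSC medium and 15.31 untreated. Atp5b, the beta subunit of the same head, had 16.05, 16.19, 16.18 and 16.30 on its brightest probe, lowest with both and highest in untreated cells. Its other 2 RefSeq-matched probes were lowest in untreated cells at the normalized level and gave 0.25 and 0.38 for IL17A minus untreated, against -0.11, so the direction rests on the probe.

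Pairs of comparisons without a shared array were set side by side. For IL17A, 10 members were higher and 42 lower both without and with ADSC medium, and 36 went opposite ways, so 59.1% kept their sign, against 62.4% of all genes. For ADSC medium, 48 were higher and 25 lower in both untreated and IL17A-treated cells and 15 went opposite ways, or 83.0% with the same sign against 72.7% of all genes. Both medium comparisons run across the same 2 slides. The difference of differences, IL17A with medium minus IL17A without, had a median of -0.04 over 88 members and -0.03 over all genes, with 62 members below 0. Of all 14485 genes, 8166 were below 0.

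**Figure D4:**
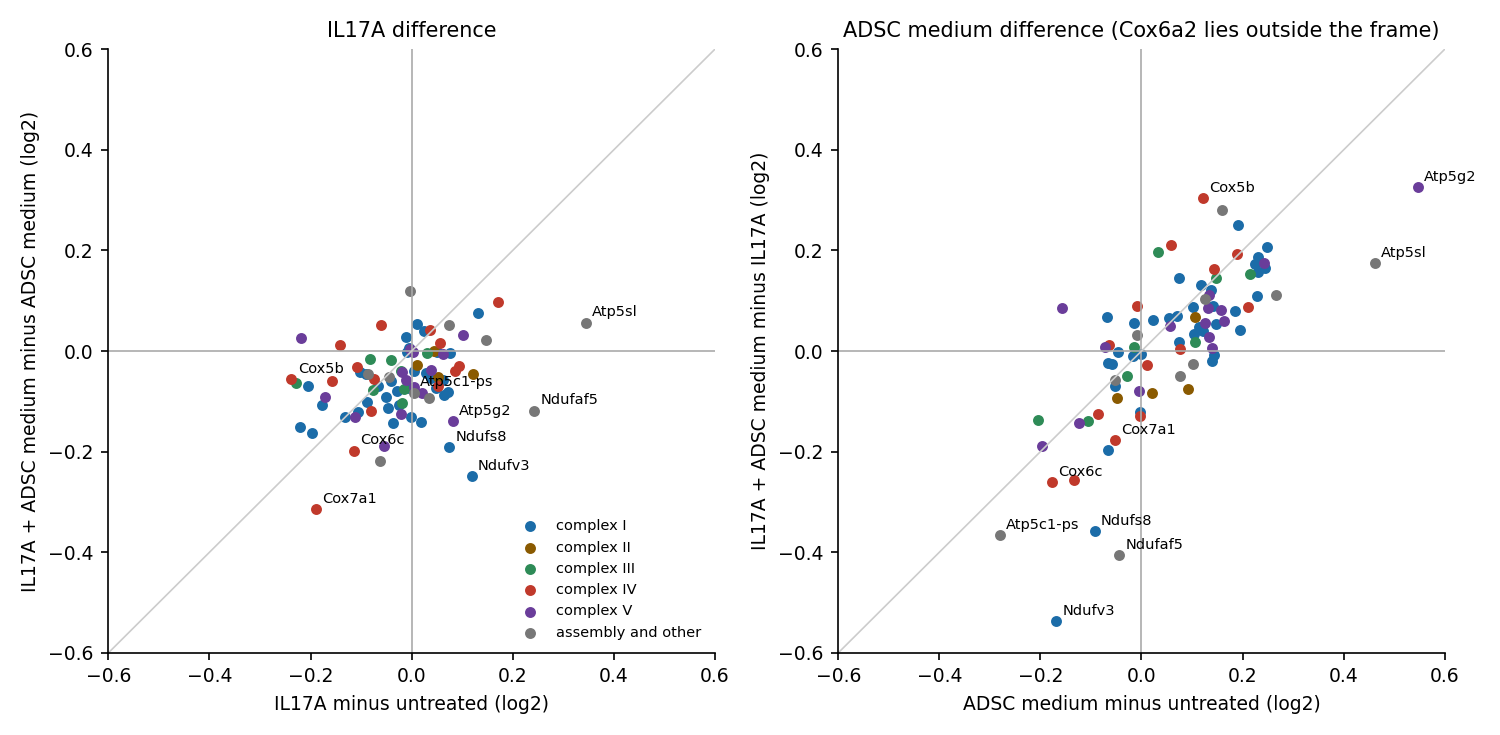
Each point is 1 of the 88 genes, coloured by complex. The left panel sets the log2 difference of IL17A plus ADSC medium minus ADSC medium (y axis) against IL17A minus untreated (x axis), and the right panel IL17A plus ADSC medium minus IL17A (y axis) against ADSC medium minus untreated (x axis), with the line of equal values in grey. Most points of the left panel lie below 0 on the y axis, 71 of 88, beside 8522 of 14934 genes measured, which are not drawn. In the right panel most points lie on the same side of 0 on both axes. Within that frame Ndufv3 is lowest, at -0.17 (x axis) and -0.54 (y axis). Atp5g2 is farthest right, at 0.55 and 0.33. Cox6a2, at 1.98 and 2.09, lies outside the right frame.

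Genes around the chain were taken from lists of known pathway members. Of 13 subunits encoded in mitochondrial DNA, 3 were on the array by name, namely the complex I subunit mt-Nd4, cytochrome b (mt-Cytb) of complex III and the complex IV subunit mt-Co2. Levels of mt-Cytb were 15.78 with both, 15.48 with IL17A, 15.72 with ADSC medium and 15.91 untreated. With IL17A minus untreated, mt-Nd4 differed by -0.38, mt-Cytb by -0.44 and mt-Co2 by -0.23, beside a median of -0.01 for the nuclear members. Under 75th percentile scaling the 3 differences were -0.36, -0.25 and -0.06. With ADSC medium present, IL17A gave 0.11, 0.06 and 0.05, the last of which was -0.02 under that scaling. For ADSC medium minus untreated the differences were -0.06, -0.20 and -0.24, or -0.01, -0.01 and -0.05 under that scaling. For both minus untreated they were 0.06, -0.14 and -0.20. The low level of mt-Co2 against untreated was thus not particular to IL17A. None of the 3 passed 1.5-fold.

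Electron carriers and assembly factors of complexes II to V, 26 measured of 28, had no gene past 1.5-fold in any comparison, with medians between -0.02 and 0.11. Cytochrome c (Cycs) had levels of 14.26 with both, 14.27 with IL17A, 14.12 with ADSC medium and 13.99 untreated. The ATP synthase assembly factors Atpaf1, Atpaf2 and Tmem70 were higher with ADSC medium than untreated by 0.25, 0.34 and 0.33, and with both than with IL17A by 0.28, 0.26 and 0.22. Factors of other complexes were as high with ADSC medium against untreated, as Sdhaf3 at 0.36, Cox10 at 0.28 and Bcs1l at 0.27. In that comparison, which runs across the slides, 20 of the 26 lay above 0 and 6 below, beside 8398 and 6499 of all genes. The 17 genes of the citric acid cycle and pyruvate dehydrogenase likewise had none past 1.5-fold, with medians between -0.06 and 0.10. The succinate dehydrogenase genes, members of complex II that also belong to that cycle, ranged from -0.09 to 0.12 over the 5 comparisons.

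Some regulators of mitochondrial biogenesis passed 1.5-fold. Of 19 tested in IL17A minus untreated, 2 were higher by 1.5-fold, Hif1a at 1.16 and Myc at 0.62, and 2 lower, the coactivators Ppargc1b at -0.93 and Ppargc1a at -0.62, beside 13.4% of all genes that passed either way. Ppargc1a, which drives expression of respiratory genes, had levels of 2.24 with both, 4.95 with IL17A, 3.92 with ADSC medium and 5.56 untreated, and was well above background on 3 arrays. Esrra, a nuclear receptor with respiratory gene targets, was 11.08 with both, 10.44 with IL17A, 10.59 with ADSC medium and 10.25 untreated. Tfam, the packaging and transcription factor of mitochondrial DNA, was 12.64, 13.18, 12.78 and 12.99 in the same order, lowest with both. The list median was 0.13 for IL17A minus untreated and 0.01 for both minus IL17A.

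Of 15 hypoxia-inducible genes, 5 were higher by 1.5-fold with IL17A than untreated and 0 lower, beside 13.4% of all genes either way, with a list median of 0.48 and one of -0.01 for the respiratory members. With ADSC medium present, IL17A gave 3 higher and 1 lower, beside 15.6% of all genes, and a median of 0.06. Pdk1, a kinase that inhibits pyruvate dehydrogenase, had levels of 7.94 with both, 8.81 with IL17A, 8.36 with ADSC medium and 8.17 untreated. With both minus IL17A, 1 of the 15 was higher and 4 lower, beside 19.3% of all genes, with a median of -0.37. Higd1a, a hypoxia-induced protein that binds complex IV, was 12.74 with both, 13.13 with IL17A, 12.82 with ADSC medium and 12.67 untreated. Subunits of complex IV itself had medians of -0.07 and 0.01 in the same pair of comparisons.

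**Figure D5:**
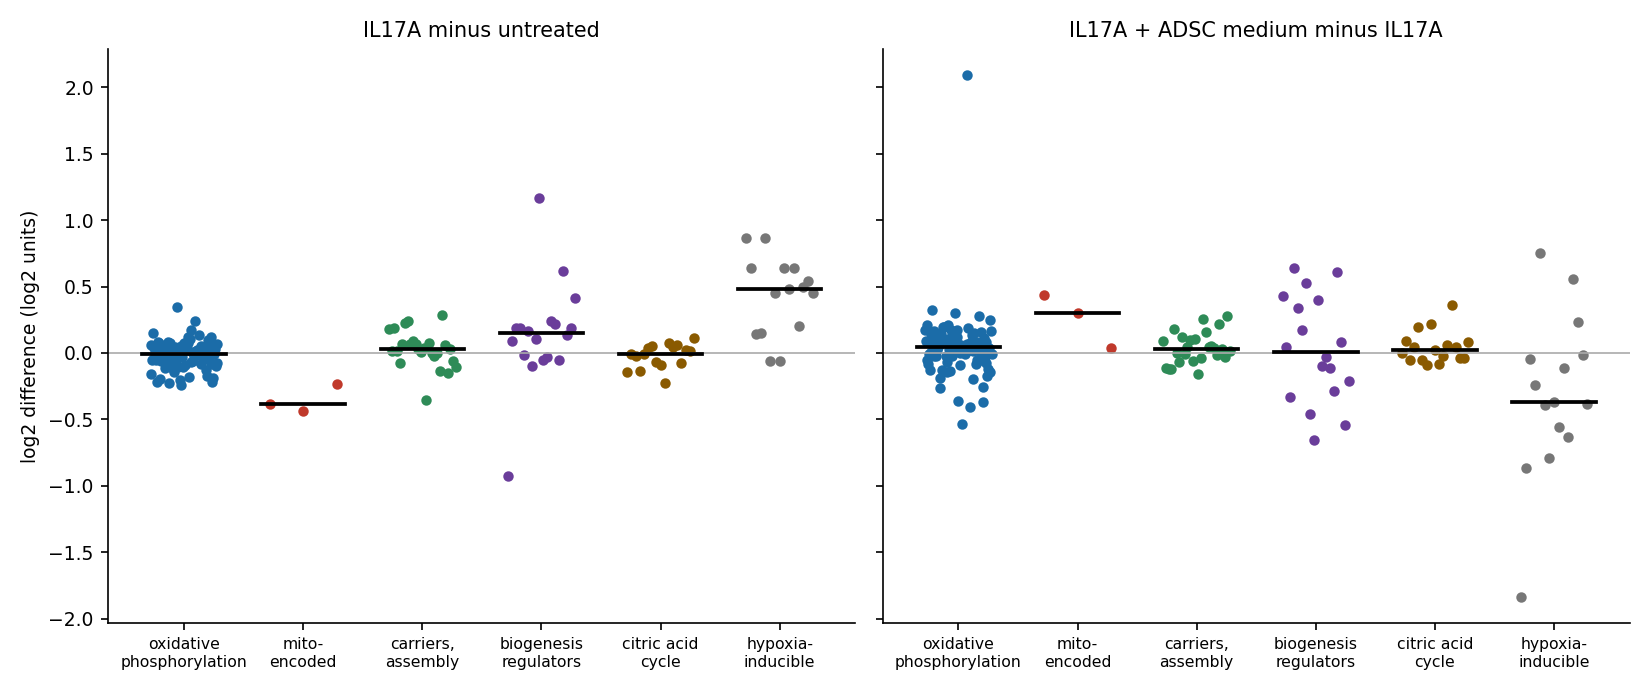
Log2 differences (y axis) of genes measured on all 4 arrays in 6 lists (x axis), for IL17A minus untreated on the left and IL17A plus ADSC medium minus IL17A on the right, with each list's median over these genes as a black bar. On the left the respiratory genes and citric acid cycle genes gather at 0, the 3 mitochondrially encoded subunits lie between -0.44 and -0.23, and hypoxia-inducible genes lie mostly above 0. The single respiratory gene far above the rest on the right is Cox6a2, at 2.09.

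Promoters of the subunit genes were searched because they are known targets of a few shared factors. RefSeq windows of 300 bases (GRCm38.p6, 250 before to 50 after the start) matched 68 of 82 subunit genes. On either strand, the NRF1 motif was in 17 of the 68 (25%) and in 10.8% of 10791 genes tested on the arrays. The ETS motif CCGGAAG, which GABPA binds, was in 16 (23.5% against 18.9%), the YY1 motif AAGATGG in 11 (16.2% against 8.38%) and the ERRA motif AAGGTCA in 8 (11.8% against 3.95%). The letters CG, which the NRF1 and ETS motifs contain, had a median count of 19 in 73 windows of subunit genes. Over all 32851 windows it was 7, and its part in the motif shares was not tested. Shown are the promoter of Cox6a1 with matches in capitals and that of Ndufv3 without any match.
Cox6a1, minus strand, chr5:115348909-115349208: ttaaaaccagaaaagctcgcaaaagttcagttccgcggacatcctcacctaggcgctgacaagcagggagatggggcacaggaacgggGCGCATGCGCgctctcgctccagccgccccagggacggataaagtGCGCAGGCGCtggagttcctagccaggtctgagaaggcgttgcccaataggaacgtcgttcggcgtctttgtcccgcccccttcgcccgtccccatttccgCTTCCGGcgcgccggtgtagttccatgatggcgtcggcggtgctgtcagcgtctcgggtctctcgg
Ndufv3, plus strand, chr17:31519865-31520164: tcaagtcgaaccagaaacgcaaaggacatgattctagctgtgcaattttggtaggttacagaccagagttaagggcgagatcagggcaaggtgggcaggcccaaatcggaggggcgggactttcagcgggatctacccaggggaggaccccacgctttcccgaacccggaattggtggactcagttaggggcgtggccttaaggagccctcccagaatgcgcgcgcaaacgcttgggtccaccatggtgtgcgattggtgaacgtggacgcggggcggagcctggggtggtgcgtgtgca

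In the Cox6a1 window the capitals mark, in order, an NRF1 match that reads the same on both strands, an NRF1 match on the other strand and an ETS match on the other strand. Members with and without a motif had close medians. For ADSC medium minus untreated they were 0.06 with and 0.10 without the NRF1 motif, 0.11 and 0.08 for ETS, 0.14 and 0.08 for YY1, and 0.10 and 0.08 for ERRA. For IL17A minus untreated all 8 medians lay between -0.02 and 0.00. A match of letters is a description of the window and does not show binding.

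The authors' deposited lists of genes higher with IL17A than untreated, and higher with IL17A than with IL17A plus ADSC medium, held 861 and 1193 probes, or 2.09% and 2.9% of the probes on the array. Of the 136 probes of the members, 0 were in either list.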

How the data were processed

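Cy3-labelled total RNA of 4 cultures was read on 1-colour Agilent mouse arrays, 1 for each group, and scans were read with Feature Extraction 12.1.1.1, per the file headers. The deposited intensity values are processed signals, background-subtracted within each array per the file headers. Deposited score columns of 0 or 1 mark, per the file headers, outlying spots, saturated spots and those well above background. The authors quantile normalized their data per the series design text, with R 3.5.1 listed among tools in the submitters' processing notes. The authors' 2 deposited lists hold probe IDs, with thresholds not given in the sources used here.

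Outlier spots (100 for both agents, 91 for IL17A, 107 for ADSC medium, 126 for untreated) were left out, log2 signals were quantile normalized over the 4 arrays with limma 3.58.1 (R 4.3.3), and spots of a probe were averaged. Where a gene had several probes, that of the highest mean level stood for it. Members kept the file's gene name, and other genes were named through RefSeq (GRCm38.p6). A gene counted at a fold of 1.5 when well above background on the brighter array, with a dim array held at its lowest level well above background. Medians used genes well above background on both arrays. The number of arrays limits the precision, and no test between groups was run. Named genes were the 5 highest and 5 lowest members of each comparison, those past 1.5-fold, catalytic core and isoform genes, and members whose probes disagree, from which the text takes part. Members, lists and rules were chosen with earlier results of these data known. The 1.2-fold count and the level class of 10 or more were added after the data were seen. The call rule was checked on simulated arrays. Tables were made with Python 3.11.15, pandas 2.3.3 and NumPy 2.4.6. Alternatives were 75th percentile scaling, normexp correction (offset 50), other filters, the mean of probes, RefSeq-matched probes and 2-fold.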

Additional observations from a re-analysis of the deposited data

Results flagged for a closer look

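Among the named genes, as defined under processing, 4 had an IL17A difference above 0 without ADSC medium and below 0 with it. Both differences exceeded the technical SD between spots at that level, and the contrast between them was not tested. Opposite signs of any size, in either direction, were found in 36 of 88 members and in 5447 of 14485 genes. The difference of differences, IL17A with medium minus IL17A without, was -0.37 for Ndufv3, -0.36 for Ndufaf5, -0.27 for Ndufs8 and -0.22 for Atp5g2. The underlying log2 differences of IL17A with and without the medium were -0.25 and 0.12 for Ndufv3, -0.12 and 0.24 for Ndufaf5, -0.19 and 0.07 for Ndufs8, and -0.14 and 0.08 for Atp5g2. On the second probe of Atp5g2 they were 0.04 and 0.04. Of members not among the named genes, Ndufa10 and Ndufa8 did likewise, with -0.08 and 0.07 for Ndufa10 and -0.09 and 0.06 for Ndufa8. On the second RefSeq-matched probe of Ndufa8 the differences with and without the medium were -0.10 and -0.02.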

How the results depend on the processing

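No paired analysis was possible because each group had 1 array, and slide could not be fitted for ADSC medium, which it matches. Under 75th percentile scaling the median for ADSC medium minus untreated was 0.18, the median difference of differences -0.12, and 2 members were at least 1.5-fold higher with ADSC medium than untreated, Cox6a2 and Atp5g2. The same scaling gave a median of 0.03 for IL17A minus untreated, opposite in sign to -0.01, and normexp correction a median of -0.01 for both minus untreated, opposite in sign to 0.01, with 46 members below 0 and 42 above. With genes well above background on all 4 arrays, Cox7b2 dropped out and 0 members were 1.5-fold lower in each comparison with untreated cells. With the mean of probes, 2 members were higher (Cox6a2 and Uqcrq) and 2 lower (Ndufv3 and Ndufs5) for both minus IL17A, and 2 lower for both minus untreated. The second probes of Uqcrq and Ndufs5 are dim. At 1.2-fold the counts higher and lower were 1 and 1 for IL17A minus untreated, 0 and 1 for both minus ADSC medium, 4 and 2 for ADSC medium minus untreated, 4 and 4 for both minus IL17A, and 4 and 6 for both minus untreated. The 2-fold rule, RefSeq-matched probes and the lack of a filter moved none of these values beyond the technical SD or 1.5 times. Normexp correction moved no median or count so, but gave smaller differences for dim genes such as Cox6a2. Of 290 medians of single complexes and differences of named genes, 75 moved by more than the technical SD under 75th percentile scaling, 104 under normexp correction and 40 with the mean of probes. No difference past 1.5-fold turned its direction.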

Other observations

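Most members were read by a probe matched to a RefSeq accession, but 17 of the 136 probes were not, and 14 of those were well above background on all 4 arrays. Their median log2 difference was -0.07 for IL17A minus untreated and 0.25 for IL17A plus ADSC medium minus ADSC medium, beside -0.01 and -0.06 for the probes used for the genes. The 27 other RefSeq-matched probes well above background on all arrays had medians of 0.06 and -0.02. Of these 27, 22 lay above 0 and 5 below in the first comparison, and 11 above and 16 below in the second. The split of members about 0 thus depends on the choice of probe. Chosen after its values were seen, the second probe of Uqcrq, a complex III subunit, had signals of 41.1 with both, 15.9 with IL17A, 19.2 with ADSC medium and 24.3 untreated, while the RefSeq-matched probe of Uqcrq had 69807, 62182, 72349 and 61569 in the same order of arrays. A probe of Atp5b without an accession had 385 with both, 170 with IL17A, 198 with ADSC medium and 221 untreated, high on 1 array only. Of the 14 probes, 5 (of Atp5b, Ndufab1, Ndufv2, Sdha and Uqcrq) were lower with IL17A than untreated and higher with both than on either array with 1 agent. That pattern was set after the values were seen, and its share among all probes of the array was not counted. Signals of the 5 probes ran only from 7.8 (Ndufv2 with IL17A) to 385 (Atp5b with both).

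Of 22 members with several RefSeq-matched probes, the probes shared the sign of their difference in 13 for IL17A minus untreated and in 15 for both minus IL17A, with a median spread of 0.09 and 0.10 log2 between probes. The spread between probes of a gene was thus close to the size of most members' differences between arrays.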
